A study of Mus musculus with 24 samples.

Results

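The cytosolic ribosomal protein genes were followed in cultured mouse alveolar epithelial type 2 cells (AEC2s), the surfactant-producing progenitors of the alveolus. Members were the protein-coding genes whose symbol has the form Rpl or Rps and a number with an optional letter, or Rplp0, Rplp1, or Rplp2, and which had 100 or more counts summed over the 24 libraries. Of the 55421 mouse gene identifiers in the count table, 82 had such a symbol. Among these, 3 were pseudogenes (Rpl32l, Rpl6l, and Rps4l) and 3 had too few counts (Rpl10l with 0, Rpl39l with 49, and Rpl3l with 43), which left 76 members. They comprised 43 proteins of the large subunit, 3 of its P stalk, and 30 of the small subunit, and all 76 passed the filter on low counts.

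AEC2s were isolated from wild-type mice (labelled WT, Krt8+/+) and from mice lacking the intermediate filament gene Krt8 (labelled KO, Krt8-/-). RNA was taken from freshly isolated cells (day 0, labelled D0) and on days 1, 3, and 7 of 2D culture (D1, D3, D7), in 3 biological replicates. This gave 3 libraries in each of 8 groups. The labels tie each replicate to a batch date that both genotypes and all days share, without saying which step was done on it, and the replicates are called isolations 1 to 3 here for short. A p value sets a difference against the spread between replicate libraries within groups, and the main test did not pair the libraries by isolation. The deletion is constitutive and not limited to 1 cell type. Age, sex, and strain were not stated.

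A ribosome holds 1 copy of nearly every ribosomal protein, bound to ribosomal RNA in a large and a small subunit. The messages of these proteins begin with a run of pyrimidines, the 5′ terminal oligopyrimidine (TOP) tract, through which MTOR controls their translation together. Their transcription is supported by MYC, which also drives the factors that build ribosomes in the nucleolus. Several ribosomal proteins have a second, closely related gene, and most have processed pseudogene copies scattered over the genome.

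The region around the annotated start site is shown for the members on which the following results turn, members with a steep rise in culture (Rps27l, Rpl38, Rpl5, Rplp0, Rpl12, and Rpl39) and those that did not rise (Rps27, Rps19, and Rpl10). Each line holds the 40 bases before the start and the first 20 bases after it on the coding strand, from RefSeq on GRCm38.p6. Capitals mark the longest unbroken run of C or T with at least 1 base within 10 bases of the start.
Rps27l: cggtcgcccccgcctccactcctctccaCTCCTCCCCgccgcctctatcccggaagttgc
Rpl38: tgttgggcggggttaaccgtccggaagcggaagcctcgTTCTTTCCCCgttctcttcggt
Rpl5: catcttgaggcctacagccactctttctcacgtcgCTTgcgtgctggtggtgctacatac
Rplp0: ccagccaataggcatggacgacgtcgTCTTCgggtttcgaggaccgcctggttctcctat
Rpl12: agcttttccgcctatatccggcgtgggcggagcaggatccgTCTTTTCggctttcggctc
Rpl39: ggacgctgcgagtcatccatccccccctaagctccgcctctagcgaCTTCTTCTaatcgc
Rps27: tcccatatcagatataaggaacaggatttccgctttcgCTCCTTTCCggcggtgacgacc
Rps19: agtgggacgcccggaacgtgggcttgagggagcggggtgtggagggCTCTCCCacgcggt
Rpl10: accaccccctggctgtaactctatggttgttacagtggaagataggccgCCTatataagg
These windows lie at chr9:66946046-66946105 (plus strand) for Rps27l, chr11:114668540-114668599 (plus) for Rpl38, chr5:107900488-107900547 (plus) for Rpl5, chr5:115559427-115559486 (plus) for Rplp0, chr2:32961672-32961731 (plus) for Rpl12, chrX:37085203-37085262 (minus) for Rpl39, chr3:90213629-90213688 (minus) for Rps27, chr7:24884873-24884932 (plus) for Rps19, and chrX:74270776-74270835 (plus) for Rpl10. For Rps27l with 2 annotated starts and Rps19 with 3, the window with the longest run is shown. The run was 9 bases long in Rps27l and also in Rps27, and 3 bases long in Rpl5 and also in Rpl10. So counted, members with and without a rise had runs of the same length. The count depends on the annotated start and on the reach of 10 bases. In Rpl5, a longer run of C or T lay upstream, just outside this reach, and was not counted.

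Start windows were held for 56 of the 76 members (67 windows, each 250 bases before the start and 50 after). A run of 8 or more bases, each C or T, reached within 10 bases of the start in 29 of these windows (43.3%), against 14.0% of all 32851 windows. Runs of 5 or more were in 67.2% of the members' windows and 45.9% of all windows. Other short motifs were searched on both strands of the whole window. GGAAGT, the core of sites for ETS factors, was in 47.8% of the members' windows and 23.8% of all. GGGCGG, the core of Sp1 sites, was in 59.7% and 35.7%. A longer motif that holds the core of YY1 sites was in 5.97% and 0.852%, and TATAAA, the TATA box, was in 8.96% and 13.6%. Only 4 windows of members held the longer motif, that of Rpl13a and the overlapping windows of Rpl35a. Members with a run of 8 or more rose by a median of 1.01 on the log2 scale from day 0 to day 1 in Krt8+/+ AECs (24 of 28 called higher), and members with a window but no such run rose by a median of 0.99 (22 of 28). Of the 20 members without a window, 14 were called higher, with a median of 0.88, and over all genes tested 26.2% were called higher. A match of letters describes the window and not a site that is used.

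Total counts per library ranged from 10184439 to 19483386. Krt8 averaged from 523 to 4030 CPM (counts scaled to a common effective library size) over the days in Krt8+/+ AECs and from 29.6 to 38.2 CPM in Krt8-/- AECs. The summed CPM of 8 AEC2 markers, all of them detected, fell from between 229208 and 307642 on day 0 to between 157 and 253 on day 7. On day 1, isolation 2 stood apart in both genotypes, with 1.79% and 1.73% of its counts in these AEC2 markers against 6.62% to 8.87% in isolations 1 and 3. Macrophage markers (8 genes, all detected on each day) summed to 7.49 to 43.4 CPM on day 0 and 21.7 to 193 CPM on day 1. Fibroblast markers (7 genes, all detected) summed to 295 to 985 CPM on day 0 and 834 to 3175 CPM on day 7. Lymphocyte markers (8 genes, 3 of them at 0 in every library of day 7) stayed under 23.7 CPM. Proliferation markers (5 genes, all detected) stayed at or under 35.8 CPM until day 1 and reached between 245 and 460 CPM by day 3. Club and ciliated cell markers (4 genes) summed to 4489 to 17351 CPM in fresh cells, 4771 to 15778 CPM after 1 day, and 16.6 to 35.9 CPM after 7 days, when 1 of them was at 0 in every library. Endothelial markers (6 genes) summed to 22.6 to 39.9 CPM in fresh cells and to 1.87 to 5.42 CPM after 7 days, when 1 was at 0 in every library. Levels of these markers moved with the day, and their part in the results was not tested. In bulk RNA, fewer cells of a type and less RNA per cell cannot be told apart.

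The share of all counts assigned to ribosomal protein genes rose within 1 day of culture and remained above day 0 thereafter. In Krt8+/+ AECs, the 76 genes together held 0.587%, 0.864%, and 0.833% of the counts on day 0 in isolations 1, 2, and 3. After 1 day of culture they held 1.20%, 2.98%, and 1.85%. The values were 1.60%, 1.41%, and 1.64% at day 3 and 1.94%, 1.71%, and 1.70% at day 7. The lowest library of each culture day lay above the highest of day 0. Krt8-/- AECs began with shares of 0.712%, 0.710%, and 0.948%, which became 1.21%, 2.34%, and 1.67% after 1 day, 1.32%, 1.68%, and 1.33% after 3, and 1.87%, 1.48%, and 1.75% after 7, again without overlap between fresh and cultured cells. The widest spread was on day 1, where isolation 2 was highest in both genotypes. No member was among the 10 most abundant genes of any library. Because surfactant genes dominate day 0, the share was also taken without the 8 AEC2 markers, which gave 0.968% ± 0.214 (SD, n = 3) in fresh Krt8+/+ AECs, 2.11% ± 0.865 after 1 day of culture, and 1.79% ± 0.135 after 7 days.

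**Figure D1:**
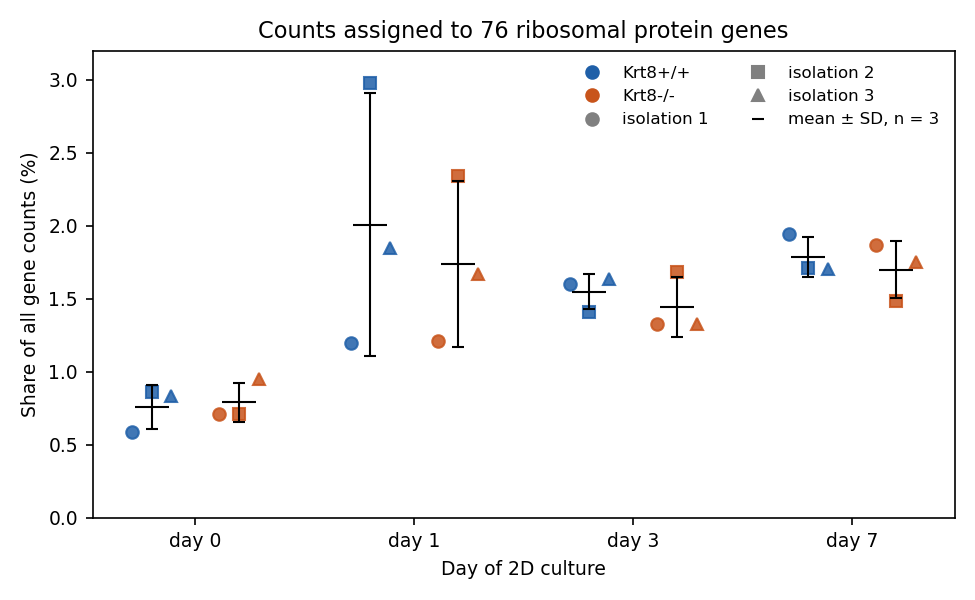
Share of all gene counts (%) assigned to the 76 ribosomal protein genes, by day of 2D culture. Points are single libraries, with colour for the genotype and shape for the isolation, and bars are the mean ± SD of 3 libraries. Day 0 libraries lie at or below 0.948% and all later libraries at or above 1.20%, with isolation 2 highest on day 1.

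From day 0 to day 1, most ribosomal protein genes rose in Krt8+/+ AECs. In edgeR's quasi-likelihood test with Benjamini-Hochberg adjustment over all 18046 genes tested, 60 of 76 members were higher and 0 lower past 0.05, where 26.2% of all genes were higher and 28.5% lower. The median member rose by 0.99 on the log2 scale (a 1.99-fold change), while the median over all genes was 0.00. The rise was shared by both subunits, with 37 of 46 large-subunit and stalk genes called and a median of 0.97, and 23 of 30 small-subunit genes and a median of 1.03. Within isolations 1, 2, and 3 the median member rose by 0.75, 1.28, and 0.76. All 3 day 1 libraries lay above all 3 day 0 libraries for 43 members, as they did for 25.6% of all genes. Without isolation 2, 48 members were called, where 20.2% of all genes were higher. Scaling by library totals alone raised the median of all genes to 0.46 and that of the members to 1.51, with 73 members called higher and 39.8% of all genes.

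**Figure D2:**
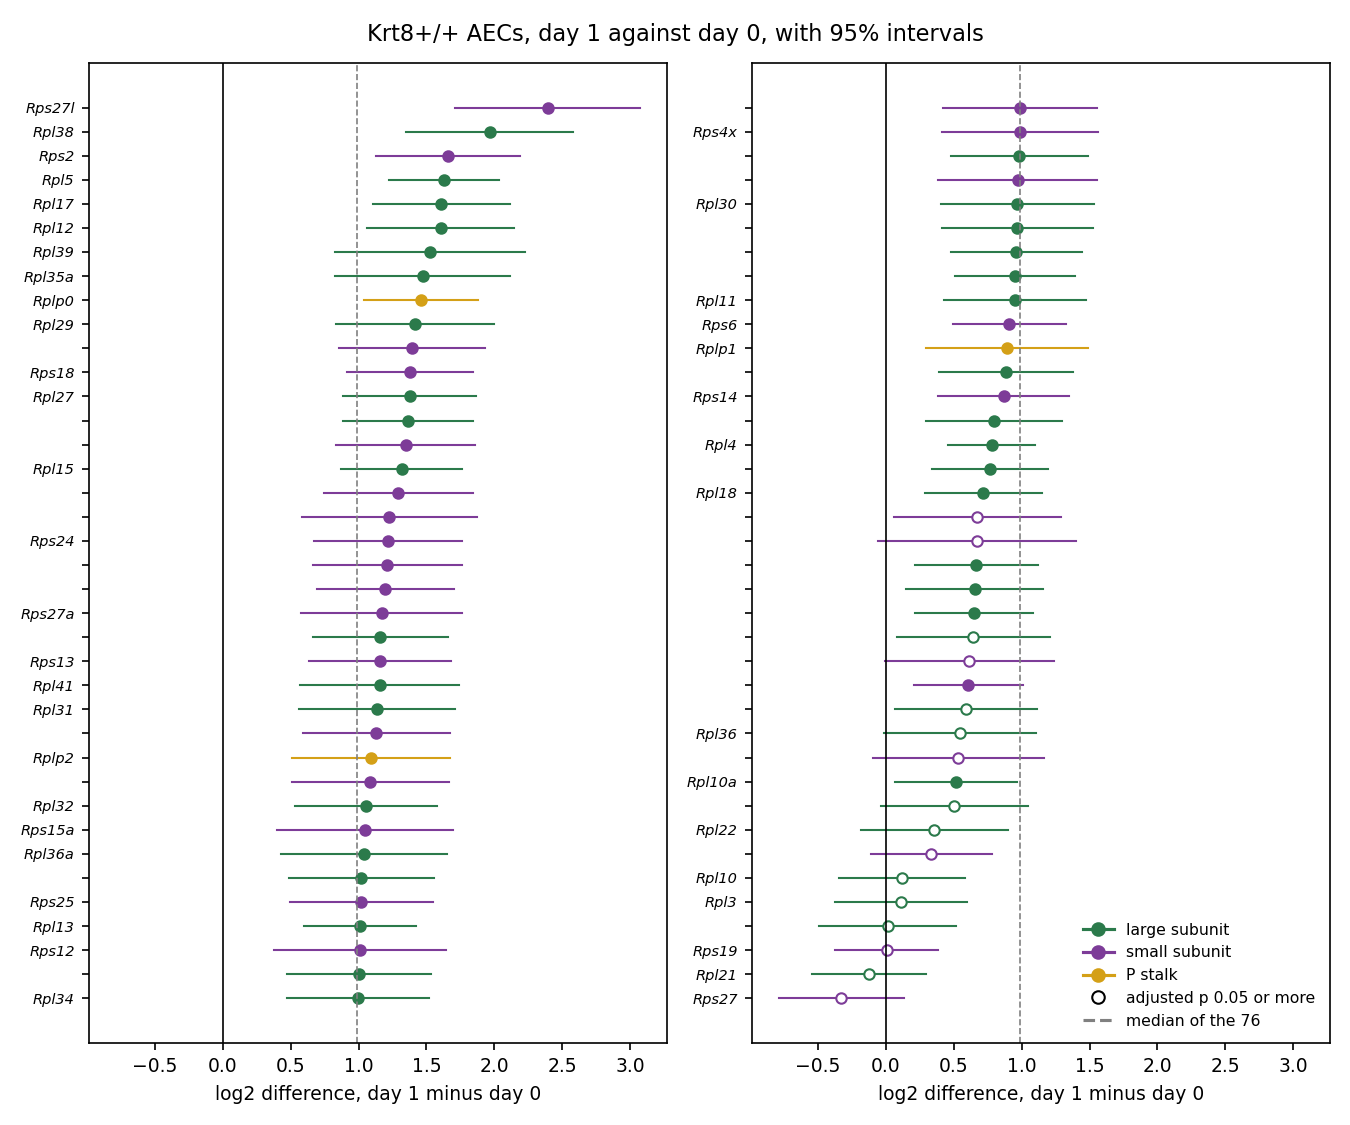
Log2 difference between day 1 and day 0 in Krt8+/+ AECs for each of the 76 genes, in descending order from the left panel to the right, with names for genes described in the text. Lines are 95% intervals from edgeR, filled points passed an adjusted p of 0.05, and the dashed line is the median of 0.99. The points run from 2.39 for Rps27l to -0.33 for Rps27.

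The member with the steepest rise was Rps27l, the paralogue of Rps27 and a known target of p53. It was counted at 61.2, 81.0, and 99.2 CPM on day 0 and at 194, 635, and 438 CPM on day 1 in isolations 1 to 3, so that every day 1 library lay well above day 0. The log2 difference was 2.39 (standard error 0.33, adjusted p = 4.5e-06). Rpl38, a surface protein of the large subunit that is needed for translation of certain Hox messages, followed with 24.99, 37.7, and 42.0 CPM on day 0 and 69.9, 206, and 132 CPM on day 1 (1.97 ± 0.30 standard error, adjusted p = 1.4e-05). Its groups did not overlap either, and isolation 2 was the highest on day 1.

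Rpl5 and Rpl11 bind the smallest ribosomal RNA and, outside the ribosome, the p53 regulator Mdm2. Rpl5 rose from 65.2, 104, and 94.8 CPM to 203, 360.1, and 254 CPM (1.63, adjusted p = 7.5e-07), the smallest adjusted p of any member in this comparison. Rpl11 was at 78.5, 108, and 110.2 CPM on day 0 and at 109, 271, and 193 CPM on day 1 (0.95, adjusted p = 0.00335). The lowest Rpl11 library of day 1 lay within the range of day 0, whereas the groups of Rpl5 were separate. Without isolation 2 the call of Rpl11 was lost.

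The proteins of the P stalk, which recruits elongation factors to the large subunit, were all called higher. Rplp0, its base, went from 207, 335, and 290.4 CPM to 540.5, 937, and 808 CPM (1.46, adjusted p = 4.9e-06). Rplp1 went from 67.0, 107, and 103 CPM to 100.4, 251, and 163 CPM (0.89, adjusted p = 0.012), and Rplp2 from 49.6, 81.9, and 83.5 CPM to 86.4, 226, and 145 CPM (1.09, adjusted p = 0.0026). Only Rplp0 and Rplp2 had groups without overlap. Leaving out isolation 2 or isolation 3 ended the call of Rplp1. Rpl12, which sits at the base of the same stalk, rose from 41.1, 67.6, and 55.5 CPM to 108, 243, and 149 CPM (1.61, adjusted p = 3.3e-05).

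Among the other large-subunit genes, Rpl17, near the exit of the peptide tunnel, rose by 1.61 (adjusted p = 1.4e-05), and Rpl39, a small protein lining that tunnel, by 1.53 (adjusted p = 0.00073). Rpl39 was at 23.97, 48.0, and 49.7 CPM on day 0 and at 58.8, 183, and 108 CPM on day 1. Rpl41, among the smallest of all proteins, rose by 1.15 (adjusted p = 0.0018) and Rpl36a by 1.04 (adjusted p = 0.0055). In the small subunit, Rps6, the substrate of the S6 kinases, went from 207, 325, and 333 CPM to 384, 712, and 528 CPM (0.91, adjusted p = 0.00076). Rps27a, made as a fusion with ubiquitin, rose by 1.17 (adjusted p = 0.0017), and Rps4x, an X-linked gene, by 0.99 (adjusted p = 0.0051). The rise of these genes was between 0.91 and 1.61, on either side of the median of all members.

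Rps2, at the entry of messenger RNA into the small subunit, rose by 1.66 (adjusted p = 1.7e-05), from 32.7, 47.2, and 55.1 CPM to 85.8, 182, and 158 CPM. Its value is uncertain, because 11 named pseudogenes of Rps2 held 250676 counts over all libraries against 31501 on Rps2 itself (88.8% of the sum). Of the 50-base windows of the longest Rps2 transcript, 69.6% occurred without a mismatch in one of these pseudogenes. The largest of them, Rps2-ps10, rose by 1.47 itself (adjusted p = 1.4e-05). Over all members, 58 had named pseudogenes, and 6, named here after their values were seen, had 33.4% or more of the joint counts on them, namely Rps2, Rpl34 (64.7%), Rpl35a (39.8%), Rpl36 (37.3%), Rpl30 (35.7%), and Rpl31 (33.4%). Of 162 named pseudogenes that could be tested, 109 were higher and 0 lower on day 1, with a median of 1.31. Of all genes, 26.2% were higher and 28.5% lower. In an alternative chosen after seeing the data, each member was summed with its pseudogenes. With it, 62 members were called higher with a median of 1.03, where 26.2% of all genes were higher. In the main fit, 13 of the 18 members without a named pseudogene were called higher with a median of 0.91, against 26.2% of all genes.

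A group of 16 members was not called on day 1, and several of them stayed flat. Rps19, a small-subunit protein whose loss causes Diamond-Blackfan anemia, was at 282, 473, and 436 CPM on day 0 and at 297, 476, and 423 CPM on day 1. Its log2 difference was 0.01, and the 95% interval from -0.37 to 0.39 lay below the median member's 0.99. Rpl21, at 201, 319, and 300.02 CPM and then 171, 327, and 253 CPM, had a difference of -0.13 with an interval from -0.55 to 0.29. For both genes the libraries of the days overlapped. Rpl10, which joins the large subunit late in its assembly, and Rpl3, which reaches into the catalytic centre, had differences of 0.12 (interval from -0.35 to 0.58) and 0.11 (interval from -0.37 to 0.60). Rpl22, a protein that also binds viral RNA, had a difference of 0.35 (interval from -0.19 to 0.90). Apart from Rps27, which is described next, the other uncalled members had differences between 0.01 and 0.67.

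Rps27 had the lowest difference of all members while its paralogue Rps27l had the highest. Rps27 (chr3:90212522-90213651 on GRCm38, minus strand) and Rps27l (chr9:66946086-66949516, plus strand) encode zinc finger proteins that take the same place in the small subunit. In Krt8+/+ AECs, Rps27 was counted at 81.2, 139, and 137 CPM on day 0, at 67.0, 120.4, and 96.5 CPM on day 1, at 58.6, 50.2, and 70.2 CPM on day 3, and at 89.1, 86.7, and 76.95 CPM on day 7. The Krt8-/- series began at 105, 102, and 157 CPM and went on to 59.3, 74.7, and 70.3 CPM, 46.5, 67.4, and 49.7 CPM, and 81.4, 77.6, and 73.7 CPM. In both genotypes Rps27 was lowest on day 3, and in Krt8-/- AECs every later library lay below every day 0 library. From day 0 to day 1 the log2 difference was -0.33 (adjusted p = 0.22) in Krt8+/+ AECs and -0.83 (adjusted p = 0.0041) in Krt8-/- AECs. From day 0 to day 7 it was -0.50 (adjusted p = 0.061) and -0.64 (adjusted p = 0.017). The Krt8-/- calls were lost without isolation 3 and with scaling by library totals, and that of day 7 also without isolation 2.

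Per kilobase of annotated exon, the CPM of Rps27l was 0.878 ± 0.115 times that of Rps27 (SD, n = 3) on day 0 in Krt8+/+ AECs, and 5.42 ± 1.55, 5.43 ± 0.557, and 4.99 ± 0.488 times on days 1, 3, and 7. In Krt8-/- AECs the ratio was 0.997 ± 0.0246, 6.01 ± 1.34, 6.23 ± 1.64, and 5.15 ± 0.494. The highest ratio of a day 0 library was 1.025 and the lowest of a later library was 3.71. This ratio does not depend on how the libraries were scaled. No 50-base window of the annotated Rps27 transcripts occurred in those of Rps27l, so that reads of this length without mismatches would not be shared. Rps27 had 1 named pseudogene with 621 counts in all and Rps27l had none. The pair was set side by side with the values of both genes known, and the ratio was not tested.

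**Figure D3:**
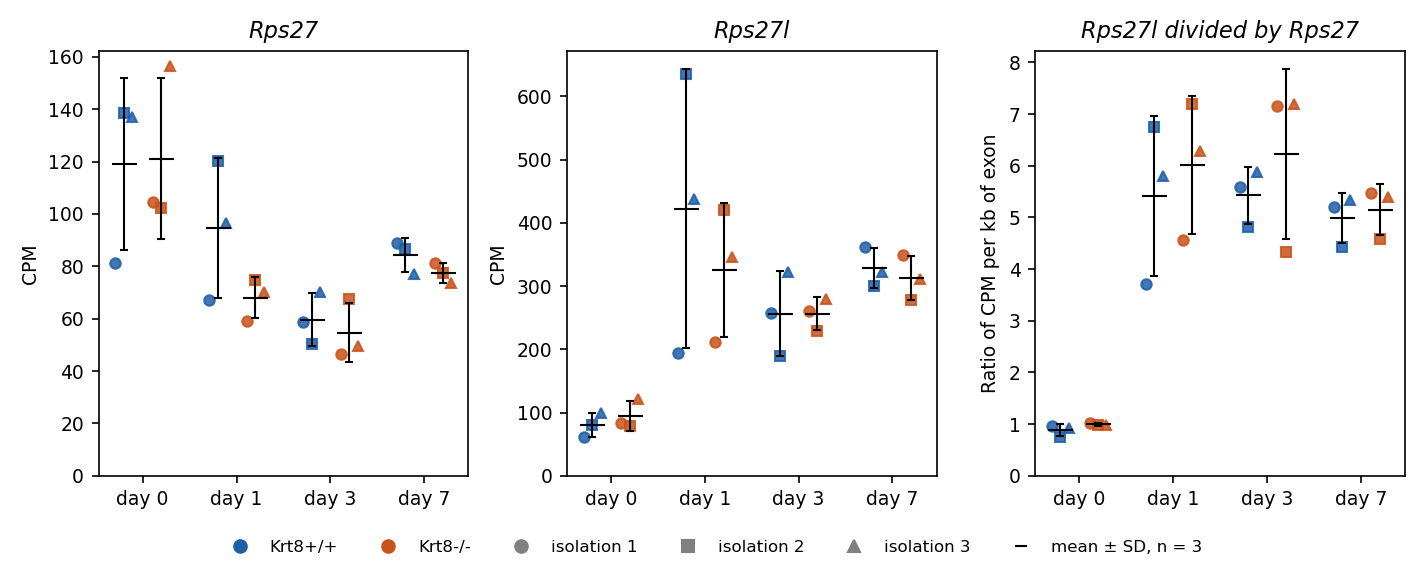
CPM of Rps27 and of its paralogue Rps27l, and the ratio of their CPM per kilobase of exon, by day of 2D culture. Points are single libraries, with colour for the genotype and shape for the isolation, and bars are the mean ± SD of 3 libraries. The ratio lies at or below 1.025 on day 0 and at or above 3.71 on every later day.

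From day 1 to day 3 the members moved down in part. In Krt8+/+ AECs, 17 of 76 were lower and 0 higher past 0.05 in edgeR, where 11.9% of all genes were lower and 14.4% higher, and the median member changed by -0.49 against -0.05 for all genes. The isolations disagreed, with medians of 0.19, -1.06, and -0.40 in isolations 1, 2, and 3. Without isolation 1, 44 members were lower, where 6.46% of all genes were. Without isolation 2 or without isolation 3 the count was 0, where 7.06% and 5.23% of all genes were lower. Scaling by library totals left 2, where 8.45% of all genes were lower. The 5 members with the largest falls were Rpl38 (-0.87, adjusted p = 0.028), Rpl41 (-0.78), Rpl34 (-0.77), Rps14 (-0.76), and Rpl32 (-0.73). Rps14, a small-subunit protein, was at 218, 476, and 316 CPM on day 1 and at 209.6, 183, and 206 CPM on day 3 (adjusted p = 0.0195). Its differences within isolations 1, 2, and 3 were -0.06, -1.38, and -0.62, so that isolation 1 hardly moved. Rps27 was lower too (-0.66, adjusted p = 0.033). In Krt8-/- AECs the median member changed by -0.33, and 2 of 76 were lower, Rpl18 (-0.58, adjusted p = 0.047) and Rpl13 (-0.56, adjusted p = 0.043), where 10.2% of all genes were lower and 13.4% higher. With isolation as a block, 4 were lower, where 12.1% of all genes were. Without isolation 1 the count was 1, and without isolation 2 or without isolation 3 it was 0. Over all genes, 3.2%, 7.12%, and 3.76% were lower without isolations 1, 2, and 3.

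From day 3 to day 7, 0 of 76 members passed 0.05 in either genotype in edgeR and also in DESeq2. In Krt8+/+ AECs, all 76 differences were positive, with a median of 0.37 against -0.01 for all genes, and 3.11% of all genes were called higher and 3.47% lower. At an unadjusted p of 0.05, 5 members passed, where 19.2% of all genes did. In Krt8-/- AECs, all 76 were positive with a median of 0.39, 4.4% of all genes were called higher and 6.15% lower, and 11 members passed an unadjusted 0.05, where 23.1% of all genes did. Within isolations 1, 2, and 3 the medians were 0.46, 0.43, and 0.26 in Krt8+/+ AECs, and 0.67, -0.02, and 0.58 in Krt8-/- AECs. Comparisons of neighbouring days share the libraries of the day between them, so the fall to day 3 and the rise to day 7 are not independent.

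After 7 days of culture, 57 of 76 members were higher than on day 0 and 0 lower in Krt8+/+ AECs, where 28.6% of all genes were higher and 30.2% lower. The median member was higher by 0.89 (1.85-fold). For 67 members all 3 day 7 libraries lay above all 3 of day 0, which 32.3% of all genes did. The steepest were Rps27l (2.03, adjusted p = 1.8e-05), Rpl39 (1.72, adjusted p = 0.00019), Rpl12 (1.54, adjusted p = 3.6e-05), Rpl15 (1.497, adjusted p = 4.8e-06), and Rpl38 (1.42, adjusted p = 0.00028). Rpl15, a core protein of the large subunit, was at 103, 160.3, and 151 CPM on day 0 and at 408, 387, and 371 CPM on day 7 without overlap. Within isolations 1, 2, and 3 the median member rose by 1.45, 0.62, and 0.62. Without isolation 1, 37 members were higher and 2 lower, where 24% of all genes were higher and 24.5% lower.

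Several members were called neither on day 1 nor on day 7. Rps19 was at 353, 322, and 312 CPM on day 7 (-0.27 from day 0, adjusted p = 0.21) after 256, 231, and 259.5 CPM on day 3, a fall from day 1 of 0.68 (adjusted p = 0.0097) that was lost without isolation 2 or without isolation 3. Rpl21 was at 174, 181, and 179 CPM on day 3 and at 225, 233, and 224 CPM on day 7 (-0.27, adjusted p = 0.26). Rpl10 had a difference of 0.09 from day 0 to day 7. The profile of the members over the days shows these genes below the bundle formed by the rest.

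**Figure D4:**
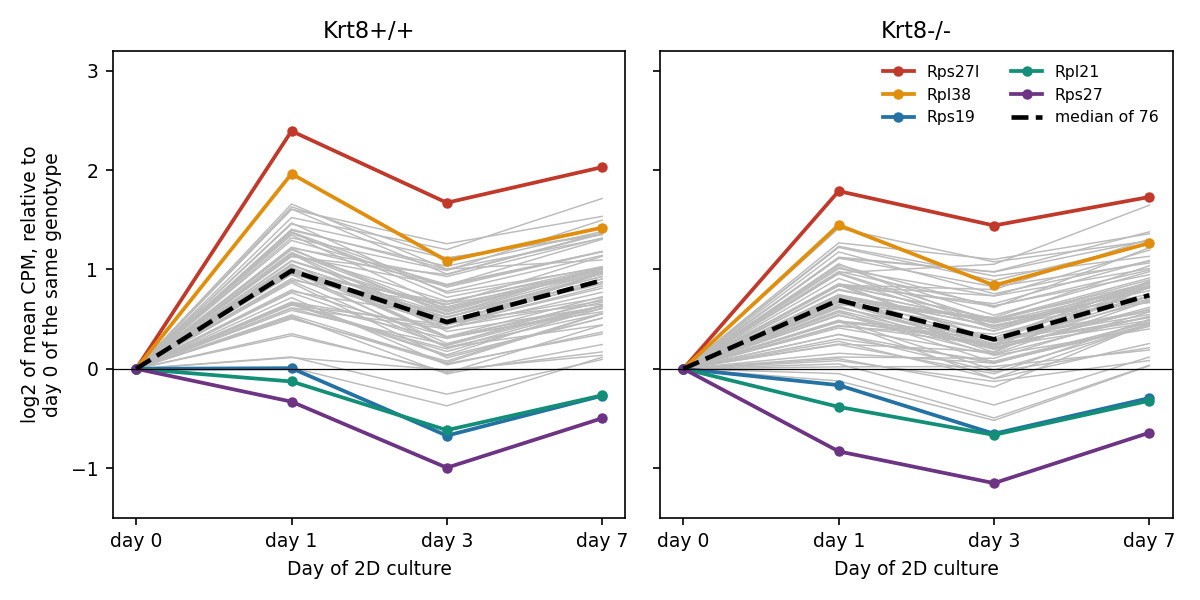
Log2 of the mean CPM of 3 libraries, relative to day 0 of the same genotype, for each of the 76 genes (grey lines), with 5 genes in colour and the median of the 76 as a dashed line. The median lies at 0.99 on day 1 in Krt8+/+ AECs and at 0.69 in Krt8-/- AECs. Rps27l runs above and Rps19, Rpl21, and Rps27 run below the other genes in both panels.

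Across the 24 libraries, log2 CPM of a member was correlated with the median of the other members at a median r of 0.95, and 56 of 76 had r above 0.9. Rps13 and Rpl27 had the highest values (both 0.990). Among the lowest were those of Rps27 (-0.12), Rpl21 (0.11), Rps19 (0.16), and Rpl10 (0.51). These are descriptions over libraries that share isolations, days, and scaling. Rps13 went from 72.7, 99.1, and 93.2 CPM in fresh Krt8+/+ AECs to 125, 293, and 172 CPM after 1 day, 144, 139, and 142 CPM after 3, and 189, 169, and 167 CPM after 7.

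Levels per length spanned a wide range among the members. Per kilobase of annotated exon on day 0 in Krt8+/+ AECs, among the highest were Rpl4 (212 ± 37.5 CPM per kb, SD, n = 3), Rpl32 (211 ± 57.8), and Rplp1 (186 ± 44.6), which do not differ beyond their spread. The lowest were Rpl35a (5.91), Rpl29 (6.29), Rpl34 (8.07), Rps18 (9.80), and Rps15a (10.6), a 35.9-fold range. The order of CPM, not divided by length, was largely kept in culture. Its Spearman correlation across the 76 genes was 0.902 between days 0 and 1 and 0.909 between days 0 and 7, as a description. Per kilobase, some members changed rank from day 0 to day 1, such as Rps27 (17 to 46) and Rps27l (23 to 1). Some of the low values go with long annotated exons (6270 bases in all for Rps15a, against 499 for Rplp1) and, for Rpl34 and Rpl35a, with counts on pseudogenes, and the part of either was not tested. Taken over the longest transcript instead, Rpl34 was at 17.3 and Rps18 at 20.9 CPM per kb.

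In Krt8-/- AECs the count of members called higher on day 1 moved with isolation 2. From day 0 to day 1, 42 of 76 members were higher and 1, Rps27, lower past 0.05 in edgeR, where 23.7% of all genes were higher and 26.9% lower, and the median member rose by 0.69 (1.62-fold). Within isolations 1, 2, and 3 the medians were 0.39, 1.17, and 0.39. Without isolation 2 the count of higher members was 19 of 76, where 18.9% of all genes were higher, and with scaling by library totals it was 64, where 39.1% were. The steepest rises were those of Rps27l (1.79, adjusted p = 0.00011), Rpl38 (1.44, adjusted p = 0.00034), Rplp0 (1.41, adjusted p = 7.7e-06), Rpl12 (1.27, adjusted p = 0.00039), and Rpl5 (1.23, adjusted p = 2.3e-05). For 26 members all 3 day 1 libraries lay above all 3 of day 0, as for 25.7% of all genes. From day 0 to day 7, 51 were higher and 1, again Rps27, lower, where 28.6% of all genes were higher and 29.9% lower, with a median of 0.74. Rps27l (1.73), Rpl39 (1.64), Rpl15 (1.38), Rpl12 (1.36), and Rps24 (1.31, a small-subunit protein) rose most. All 3 libraries of day 7 lay above day 0 for 59 members, as for 31.9% of all genes.

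No ribosomal protein gene passed the test between genotypes. In edgeR, 0 of 76 members passed 0.05 on day 0, 1, 3, or 7 or over days 1, 3, and 7 together. Of all genes, 0.0277% passed in either direction on day 0 (0.0111% higher and 0.0166% lower in Krt8-/- AECs), 0.0166% on each of days 1, 3, and 7 (0% higher), and 0.0443% over the later days together (0.0222% each way). DESeq2 also called 0 members. The median member differed by 0.04, -0.25, -0.07, and -0.06 (Krt8-/- minus Krt8+/+, log2) on days 0, 1, 3, and 7. On day 1 all 76 differences were negative, and within isolations 1, 2, and 3 the median was -0.02, -0.42, and -0.17. Without isolation 2, the isolation that stood apart, the day 1 median was -0.11. On days 0 and 3 the sign of the median changed with the isolation left out. On day 0 it was -0.06, 0.24, and -0.05 without isolations 1, 2, and 3, and on day 3 it was 0.01, -0.28, and 0.03. At an unadjusted p of 0.05, 1 member passed on day 1, where 3.54% of all genes passed, and 0 passed on day 0 (2.65% of all genes), day 3 (2.5%), day 7 (1.41%), or over days 1, 3, and 7 (3.66%). The member on day 1 was Rps27 (-0.47 ± 0.22 standard error, adjusted p = 1), at 67.0, 120.4, and 96.5 CPM in Krt8+/+ AECs and 59.3, 74.7, and 70.3 CPM in Krt8-/- AECs, lower in 3 of 3 isolations but with overlapping groups. Rpl29 had the smallest unadjusted p on day 0 (0.57, adjusted p = 1 in edgeR). It was at 4.71, 7.69, and 8.86 CPM against 9.07, 10.6, and 11.6 CPM, which do not overlap. It was followed by Rps18 (0.21) and Rpl5 (0.16). The next on day 1 were Rpl39 (-0.57) and Rps25 (-0.42). On day 3 the smallest p values included those of Rps15a (-0.32) and Rpl10 (-0.21), and on day 7 those of Rpl10a (-0.17), Rpl3 (0.13), and Rps27 (-0.12).

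**Figure D5:**
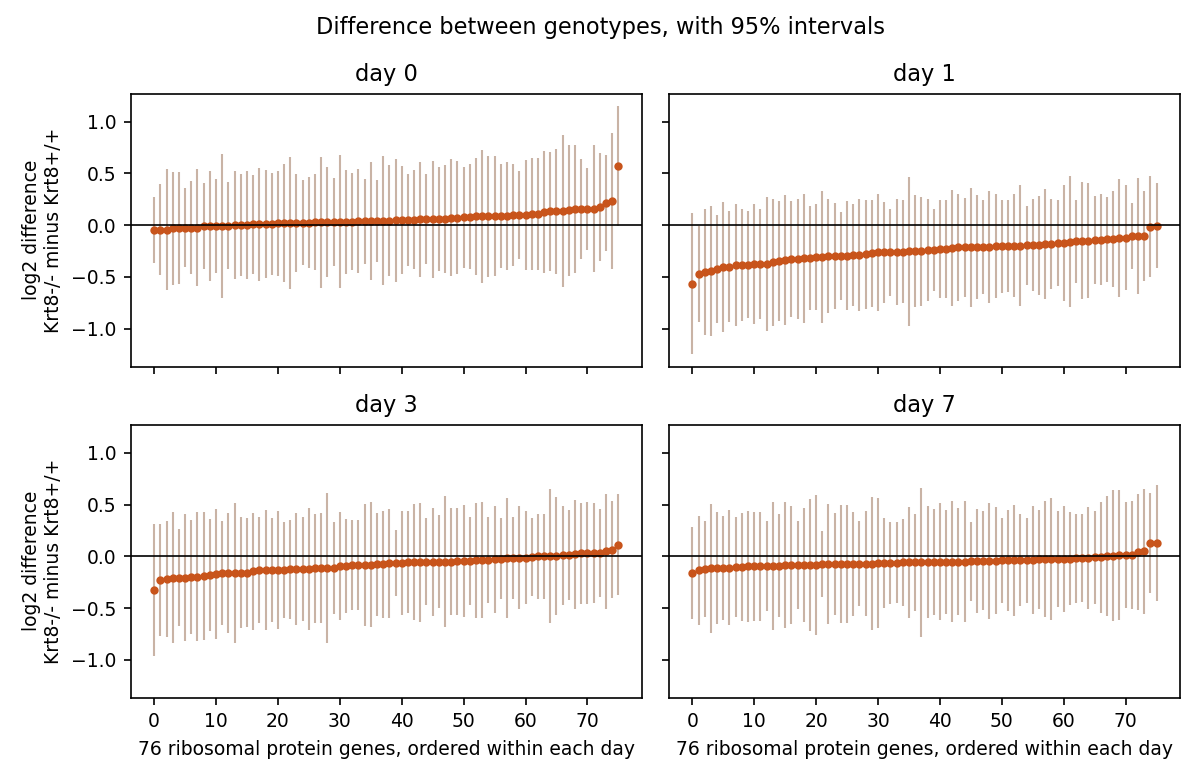
Log2 difference between Krt8-/- and Krt8+/+ AECs for the 76 genes, ordered by size within each day, with 95% intervals from edgeR. The points center near 0 on days 0, 3, and 7 and at -0.25 on day 1, and the widest departures are 0.57 for Rpl29 on day 0 and -0.57 for Rpl39 on day 1.

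The test of a genotype effect that changes with the day (3 degrees of freedom in edgeR) called 0 of 76 members, where 0.00554% of all genes were called, and 0 members reached an unadjusted p of 0.05, where 1.49% of all genes did. The smallest unadjusted p of a member in this edgeR model was 0.33 (Rpl29), followed by Rps27 and Rpl36a. This does not show that the genotypes act alike. Over days 1, 3, and 7 together, standard errors of single members were between 0.09 and 0.20 on the log2 scale, and Rps27 (-0.24) and Rps12 (-0.25), among the members with the smallest p, had an adjusted p of 1.00.

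Genes that build and supply the ribosome were examined beside its proteins. Over all genes tested, 26.2% were higher and 28.5% lower on day 1 in Krt8+/+ AECs, and 28.6% and 30.2% on day 7. In Krt8-/- AECs, 23.7% were higher and 26.9% lower on day 1. Of 58 ribosome biogenesis genes, 53 rose and 1 fell by day 1 in Krt8+/+ AECs, with a median of 1.67, and 49 stood higher and 2 lower at day 7 (median 1.26). In Krt8-/- AECs, 53 rose and 2 fell by day 1. The largest rises on day 1 were those of Nop58 (2.85), a core protein of small nucleolar particles, Gnl3 (2.83), the nucleolar GTPase nucleostemin, and Nhp2 (2.60), a protein of pseudouridine-guiding particles, each with an adjusted p below that of any member. The lower gene was Heatr1 (-0.77, adjusted p = 0.017), which acts in early small-subunit assembly and was lower on day 7 too (-1.21), together with Imp3 (-0.65). Of 15 genes of RNA polymerase I and its factors, 9 rose and 1 fell by day 1, against 8 and 3 by day 7. Polr1e (2.26), Taf1d (2.15), and Cd3eap (2.06) rose most, and Ubtf, which opens ribosomal DNA for transcription, was lower on both days (-0.42 and -0.64).

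Other messages with a TOP tract also rose. Of 18 tested, 13 rose and 0 fell by day 1, against 14 and 0 by day 7, with medians of 0.91 and 1.05. In Krt8-/- AECs 12 rose by day 1, and the list shares genes with the translation factors. Vim (2.93), Npm1 (2.56), and Pabpc1 (1.77) led on day 1. The elongation factors Eef1a1 (-0.18, adjusted p = 0.45) and Eef2 (-0.33, adjusted p = 0.066), which also have TOP tracts, did not pass. Of 35 translation factors, 27 were higher and 2 lower on day 1, with a median of 0.81, led by Eif2s2 (2.06), Eif2s1 (1.97), and Etf1 (1.496), while Eif4h (-1.06) and Eif4a2 (-0.35) were lower. Of 8 genes for ribosomal or ribosome-bound proteins outside the naming pattern, 6 were higher, among them Rack1 (1.49), a scaffold on the small subunit, and Rpsa (1.06). Rpl22l1, the paralogue of Rpl22, had a difference of -0.05 (adjusted p = 0.88). Of 78 mitochondrial ribosomal proteins, which make a separate ribosome, 33 were higher and 5 lower, with a median of 0.32. Over all genes, 26.2% were higher and 28.5% lower.

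Of 12 genes of the MYC network, 2 were higher on day 1, Myc (4.77, adjusted p = 9.8e-13) and Mycn (3.13, adjusted p = 0.00019), and 6 lower, led by Mxd4 (-1.91), Mycl (-1.76), and Max (-0.84). On day 7, Myc remained higher than on day 0 (3.92), and Mxd1 (-2.91), an antagonist of MYC, was the lowest of 5 lower genes. Over all genes, 30.2% were lower on day 7. Of 19 genes around MTOR, 6 were higher and 6 lower on day 1, which is close to the shares over all genes (26.2% higher and 28.5% lower). Eif4ebp1 (3.11), a repressor of translation that MTOR inactivates, Sesn2 (2.52), a leucine sensor induced by stress, and Rheb (1.29), the activator of MTOR, rose. Deptor (-2.50), Tsc2 (-1.60), and Castor1 (-1.07) fell. Between genotypes, 0 genes of these lists passed 0.05 in edgeR on any day.

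Transcript length was compared because many ribosomal protein genes are short. The longest annotated transcript was under 1000 bases in 33 of 76 members. Among 586 other protein-coding genes with such a transcript, 153 were higher and 145 lower on day 1 than on day 0 in Krt8+/+ AECs, with a median of 0.08. Over all genes, 26.2% were higher and 28.5% lower. From day 1 to day 3, 34 of the 586 were higher and 126 lower, where 14.4% and 11.9% of all genes were. The median of the 586 was -0.33, so that short genes had a lower median, as the members did (-0.49), against -0.05 over all genes. The part of length in this was not tested. Among the members, the Spearman correlation of length and change from day 0 to day 1 in Krt8+/+ AECs was -0.15. From day 1 to day 3 it was 0.125, and both are descriptions over 76 genes.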

How the data were processed

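RNA-seq libraries of mouse AECs were given as one table of expected counts per gene, which the authors deposited without further scaling. The submitters' processing notes name cutadapt 2.3, STAR 2.7.8a, RSEM 1.3.3, and the GRCm38 build. No source read here states the strand setting. Symbols and gene types were taken from GENCODE M21 for 55240 of 55421 identifiers. Reporter sequences (5 entries, 0 counts) were left out.

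The deposited counts were whole numbers and were used as given. Genes were filtered with filterByExpr (minimum count 10, minimum total 15), scaled with TMM factors, and tested in edgeR 4.0.16 (R 4.3.3) with the quasi-likelihood test, 1 coefficient for each of 8 groups, and 16 residual degrees of freedom. Adjusted p values are Benjamini-Hochberg values over 18046 genes, with a threshold of 0.05. Library totals of 10184439 to 19483386 limit precision, and intervals cover 95%. The fits were tested on simulated data.

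Isolation numbers are the labels' biological replicates, each tied to 1 batch date, and they pair the libraries. Same-numbered libraries of different days had correlations of deviations between -0.03 and 0.38, and those of different genotypes between 0.06 and 0.55. Libraries of a group differed by more than counting noise in all 24 pairs. Alternatives were DESeq2 1.42.0, its size factors, library totals, TMM factors from other genes, no filter, a replicate block, leaving out each isolation, and members without pseudogenes. Summing members with their pseudogenes was added after seeing the data.

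Members were named when they were paralogues, P stalk proteins, one of Rpl5, Rpl11, Rps6, Rps27a, Rpl41, Rpl22, Rps4x, Rpl10, Rpl36a, and Rpl39, the 5 largest changes in each direction past the threshold between days, the 3 smallest p values between genotypes, the 5 lowest and 3 highest correlations with the other members, or the 5 highest and 5 lowest levels per length. Genes of other lists were named among the 3 largest changes past the threshold in each direction. Eef1a1, Eef2, and Rpl22l1 did not pass and were named outside this rule. Some members that meet these rules are not reported here by name. The members and lists were chosen with earlier results of these data known.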

Additional observations from a re-analysis of the deposited data

Results flagged for a closer look

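Rps2 had opposite signs between genotypes on days 0 and 1 in every isolation. It was picked by a search of all 76 members over several pairs of comparisons, which found no other member. The share of all genes with such a pattern was not taken. The day 0 difference in isolation 2 was only 0.0017. The log2 difference of Krt8-/- minus Krt8+/+ AECs was 0.174 on day 0, between 0.0017 and 0.288 in the 3 isolations, and -0.31 on day 1, between -0.47 and -0.11. Neither difference passed 0.05 in edgeR, and the test of a genotype effect that changes with the day gave Rps2 an adjusted p of 1. Most reads of this gene and its copies were counted on pseudogenes (88.8%), whose part in the pattern was not tested. Groups of 3 libraries were too small to be examined for outlying libraries.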

How the results depend on the processing

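With the replicate block, 63 members were higher on day 1 and 63 on day 7 than on day 0 in Krt8+/+ AECs, and 49 and 56 in Krt8-/- AECs, against 60, 57, 42, and 51 without it. Of all genes, 27.7% and 30.2% were higher with the block in Krt8+/+ AECs, and 25.8% and 29.9% in Krt8-/- AECs. The block changed 1 count by more than 1.5 times, the Krt8-/- fall from day 1 to day 3, from 2 to 4 members. That count was also 4 with DESeq2 size factors and with the DESeq2 test, and 0 with library totals and with no filter. In the order of these settings, 11.4%, 13.2%, 8.18%, and 4.71% of all genes were lower. The Krt8+/+ fall from day 1 to day 3 covered 17 members, 26 with the DESeq2 test, and 2 with library totals. The shares of all genes that were lower were 11.9%, 15.2%, and 8.45%. Library totals gave 64 higher members on day 1 in Krt8-/- AECs and 0 lower members on days 1 and 7, where Rps27 had been lower. With them, 39.1% of all genes were higher on day 1, and 15.4% and 21.2% were lower on days 1 and 7. Leaving out 1 isolation at a time gave 0 to 44 lower members from day 1 to day 3 in Krt8+/+ AECs and 0 to 1 in Krt8-/- AECs, 37 to 60 higher and 0 to 2 lower on day 7 in Krt8+/+ AECs, 19 to 48 higher and 0 to 1 lower on day 1 in Krt8-/- AECs, and 0 to 1 lower on day 7 in Krt8-/- AECs. With 1 isolation left out, 5.23% to 7.06% of all genes were lower from day 1 to day 3 in Krt8+/+ AECs. The Krt8-/- share was 3.2% to 7.12%. On day 7 in Krt8+/+ AECs, 24% to 24.6% of all genes were higher and 23.3% to 27.3% lower. In Krt8-/- AECs, 18.1% to 18.9% were higher and 17.4% to 22.4% lower on day 1, and 23.2% to 26.6% lower on day 7. Rpl3 on day 7 changed sign between genotypes when summed with its pseudogenes, from 0.13 to -0.0063, with neither value called. No alternative called a member between genotypes. Across 10 settings, 46 members were higher on day 1 and 37 on day 7 in every setting in Krt8+/+ AECs, and 19 and 30 in Krt8-/- AECs. The share of all genes called in every setting was not taken, so these 4 counts have no background beside them. In single settings, 13.7% to 39.8% of all genes were higher on day 1 and 15.4% to 41.6% on day 7 in Krt8+/+ AECs. In Krt8-/- AECs the shares were 12.3% to 39.1% and 15.1% to 40.6%. The cause of these shifts was not tested. With 3 libraries per group, standard errors of single members reached 0.35 on the log2 scale.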
